A study of Mus musculus with 8 samples.

Results

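The genes of the sine oculis homeobox family encode homeodomain transcription factors that share a second conserved region, named after the family, through which they bind partner proteins. They belong to a network with the Pax and Dach transcription factors and the Eya co-activators, which works in the embryonic eye, ear, kidney and muscle. Six3 and Six6 act in the forebrain and eye field, Six2 keeps kidney nephron progenitors undifferentiated, Six4 takes part in somite and muscle development, and Six5 lies beside Dmpk, the myotonic dystrophy kinase gene. Developmental regulators of this kind are well-known targets of Polycomb repressive complex 2, which writes trimethylation of histone H3 at lysine 27 (H3K27me3), a mark of silent genes. The genes described are Six2, Six3, Six4, Six5 and Six6, each joined to the deposited table of H3K27me3 regions wherever a region overlapped its GRCm38 gene body extended by 5 kb on each side. All 5 of 5 genes had a region, and they occupied 4 of the 13585 regions of the table, because Six3 and Six2 shared 1.

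H3K27me3 was measured by chromatin immunoprecipitation and sequencing (ChIP-seq) in female primary neural stem cell (NSC) lines of the C57BL/6J strain, derived from the cortex of E14.5 embryos and used before passage 10. The comparison was between cells homozygous for MommeD43, a missense variant of the chromatin regulator Smchd1, and WT cells. It asks whether normalized H3K27me3 read counts differ with the variant. The paper reported no change in peak location from ChIP-seq of this mark and judged the method poorly suited to comparing amounts of it. For amounts it used immunofluorescence, which showed a modest decrease on the inactive X. The differences below are thus differences in read counts, not measured changes in the amount of the mark. In both genotypes the endogenous Smchd1 carried a GFP tag, so the WT cells were Smchd1GFP+/+ and the variant cells Smchd1GFPMommeD43/MommeD43. Each genotype had 3 ChIP libraries from separate lines and 1 whole cell extract library, which makes 8 samples in 4 groups. The deposited table holds 1 value per genotype for each region, the authors' mean of log2 normalized read counts over the 3 libraries, so no value below has an SD or a replicate check and no p-value is given. Errors and 95% intervals are the smallest that Poisson counting allows at the read depth recovered from the values, and they leave out all variation between cell lines. The median region held 100.1 reads per library in WT and 129.96 in MommeD43, with a median counting error of the difference of 0.11 on the log2 scale. As to the cell type, H3K27me3 is not expression, and it was only counted which marker starts lay in a region: 3 of 8 NSC markers (Nes, Hes1 and Msi1), 2 of 4 neuronal markers (Tubb3 and Rbfox3) and 0 of 5 housekeeping genes.

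The Six3 and Six2 region was chr17:85590951-85711150, 120.2 kb long, with the gene bodies of Six3 (ENSMUSG00000038805.10, chr17:85613608-85629302, plus strand) and Six2 (ENSMUSG00000024134.11, chr17:85684277-85688274, minus strand) wholly inside it. The starts of these genes lay 74.7 kb apart, and 83.6% of the region was intergenic. It also held the starts of the non-coding genes Six3os1 and Gm28528, both antisense, and AC166821.1. On chromosome 12, Six6 (ENSMUSG00000021099.6, chr12:72939892-72944899, plus strand) lay in a region of 265.85 kb, chr12:72810501-73076350, which also held the starts of the coding gene 4930447C04Rik and of the long non-coding RNAs Gm33785 and Gm26709. The Six4 region, chr12:73078101-73126900, began 1750 bp further on and was 48.8 kb long. It held Six4 (ENSMUSG00000034460.9, chr12:73099609-73113456, minus strand) and the start of Mnat1, an assembly factor of the CDK-activating kinase, and the starts of Six6 and Six4 were 173.6 kb apart. Six5 (ENSMUSG00000040841.5, chr7:19094594-19098549, plus strand) lay in the shortest of the 4 regions, chr7:19085901-19103800, 17.9 kb long, of which 54.4% was exonic and 7.08% intergenic. That region also covered 79.4% of the Dmpk gene, whose end lies 773 bp before the start of Six5, but not the Dmpk start.

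The promoters of the 5 genes are shown because each lay wholly within its H3K27me3 region and because CpG-rich promoters are the usual entry points of Polycomb. Each is the 250 bases upstream of the RefSeq transcription start in GRCm38.p6, written 5′ to 3′ on the strand of the gene, with every CG dinucleotide in capitals. They lie at chr17:85620584-85620833 for Six3, chr17:85688255-85688504 (minus strand) for Six2, chr12:72939632-72939881 for Six6, chr12:73113426-73113675 (minus strand) for Six4 and chr7:19094294-19094543 for Six5.
Six3: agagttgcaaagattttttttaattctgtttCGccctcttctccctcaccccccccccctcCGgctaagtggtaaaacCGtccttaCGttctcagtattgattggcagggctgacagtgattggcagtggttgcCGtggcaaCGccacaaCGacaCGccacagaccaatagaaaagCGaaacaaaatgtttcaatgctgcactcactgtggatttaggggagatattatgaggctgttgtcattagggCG
Six2: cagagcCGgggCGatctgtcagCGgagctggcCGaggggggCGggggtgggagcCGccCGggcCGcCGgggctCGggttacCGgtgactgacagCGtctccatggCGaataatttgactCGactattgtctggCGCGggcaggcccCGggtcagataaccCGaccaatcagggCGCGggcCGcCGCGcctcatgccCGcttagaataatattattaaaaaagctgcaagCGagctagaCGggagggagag
Six6: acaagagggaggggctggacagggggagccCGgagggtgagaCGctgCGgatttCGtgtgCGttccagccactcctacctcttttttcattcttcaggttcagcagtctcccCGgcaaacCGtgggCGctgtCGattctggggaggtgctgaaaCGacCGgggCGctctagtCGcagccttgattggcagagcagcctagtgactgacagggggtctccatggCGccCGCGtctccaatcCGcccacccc
Six4: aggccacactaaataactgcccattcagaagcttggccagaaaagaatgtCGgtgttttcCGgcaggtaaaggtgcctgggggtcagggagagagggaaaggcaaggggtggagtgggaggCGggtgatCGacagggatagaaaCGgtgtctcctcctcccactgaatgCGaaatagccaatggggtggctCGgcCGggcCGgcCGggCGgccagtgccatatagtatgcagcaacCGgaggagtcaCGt
Six5: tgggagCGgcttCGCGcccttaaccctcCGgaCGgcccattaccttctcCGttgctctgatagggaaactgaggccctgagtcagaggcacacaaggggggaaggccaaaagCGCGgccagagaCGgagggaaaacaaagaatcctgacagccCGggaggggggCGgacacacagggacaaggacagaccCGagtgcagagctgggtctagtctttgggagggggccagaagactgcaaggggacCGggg
The Six2 promoter held 26 CG dinucleotides, a number that 9.59% of 32851 mouse RefSeq promoters reach, and the Six6 promoter held 17, which 23.5% reach. Six4 and Six5 had 13 each (31.5%) and Six3 had 10 (37.8%), so all 5 lay above the promoter median of 6. The Six3 start in RefSeq was 7226 bp from the start of the GENCODE gene model, whereas for Six4 the distance was 31 bp. The letters CCAAT, searched on both strands, occurred 3 times at Six3, 2 times at Six6, 1 time each at Six2 and Six4 and 0 times at Six5, and 33.8% of all promoters held at least 1 copy and 2.79% at least 3. TCAGGTT, a MEF3-type sequence bound by proteins of the family, occurred on either strand at Six6 and in none of the other 4 windows, against 3.49% of all promoters. A further RefSeq start of Six4, 211 bp from the GENCODE start, had 15 CG dinucleotides and 1 copy of TCAGGTT in its window. These matches describe the letters of these windows and are not evidence of binding. Over the whole regions, the observed to expected CpG ratio was 0.303 for Six3 and Six2, 0.262 for Six6, 0.274 for Six4 and 0.313 for Six5, all above the autosomal median of 0.227.

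The 4 regions differed widely in H3K27me3 density. In WT cells the Six6 region had 349 normalized counts per kb, the Six3 and Six2 region 308, the Six4 region 79.4 and the Six5 region 24.6. The autosomal median in WT was 36.0, with quartiles of 28.2 and 47.5, so the first 3 lay above the upper quartile and Six5 lay below the lower one. In MommeD43 cells the Six3 and Six2 region had 457 normalized counts per kb, the Six6 region 323, the Six4 region 50.3 and the Six5 region 46.2, where the autosomal median was 37.0 and the quartiles were 28.5 and 50.3.

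**Figure D1:**
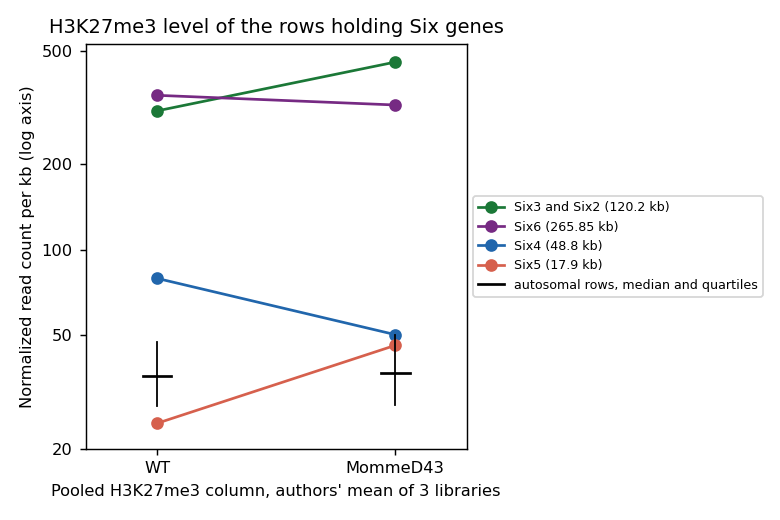
H3K27me3 level of the 4 regions holding members of the family, as normalized read counts per kb of region (log axis), in the pooled WT and MommeD43 columns. Each point is the authors' mean over 3 libraries, and the black bars give the autosomal median with its quartiles. The Six6 line and the Six3 and Six2 line cross, from 349 to 323 and from 308 to 457, while the Six4 and Six5 lines come together near 50.3 and 46.2.

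By density, Six6 and the Six3 and Six2 pair belonged to the most heavily marked regions of these cells. Six6 held rank 20 of 13585 in WT and rank 68 in MommeD43, and the Six3 and Six2 region held rank 33 in WT and rank 15 in MommeD43. The Six4 region passed from rank 899 to rank 2953, and the Six5 region from rank 10170 to rank 3601. In WT the Six6 density was 1.13-fold that of Six3 and Six2, which was 3.87-fold that of Six4, which was 3.23-fold that of Six5. In MommeD43 the Six3 and Six2 density was 1.42-fold that of Six6, which was 6.41-fold that of Six4. Six4 and Six5 were the closest neighbours there, 1.09-fold apart, a log2 gap of 0.12 with a counting error of 0.054, and without values of single lines it is not known whether any of these gaps exceeds the spread between lines. Together the 4 regions made up 0.174% of the length covered by all regions and 0.773% of the normalized counts in WT, against 0.702% in MommeD43.

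Between genotypes the 4 regions split evenly, with 2 higher and 2 lower in MommeD43, where 60.2% of all 13585 regions were higher and 39.8% lower. The 3 genes in the higher regions were Six3, Six2 and Six5, and the 2 genes in the lower ones were Six4 and Six6. None of the 4 regions reached a log2 difference of 1 in either direction, where 6.09% of all regions were higher by at least 1 and 3.03% lower by at least 1. All 4 counting intervals excluded 0, as did those of 64.3% of all regions. The median difference over the 4 regions was 0.23, beside 0.11 over all regions and 0.075 over the 11707 autosomal ones. Its sign depended on the scaling, since it was -0.013 with values scaled to the total of all regions and -0.080 with the abundance trend removed.

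The Six3 and Six2 region, which serves a forebrain and eye regulator and a nephron progenitor regulator at once, had a log2 count of 15.17 in WT and 15.74 in MommeD43. The difference was 0.57 (95% counting interval 0.55 to 0.59), or 48.4% more normalized counts, from about 11309 reads per library in WT and 20835 in MommeD43. This difference was greater than that of 90.2% of autosomal regions. It was smaller under other treatments, at 0.26 with the abundance trend removed and 0.14 after removal of the trends over GC content and read density. Six5, the neighbour of Dmpk, had the thinnest data of the 4. Its region had a log2 count of 8.78 in WT and 9.69 in MommeD43, a difference of 0.91 (0.74 to 1.08), or 87.9% more counts, from 134.6 and 314 reads per library. The Six5 difference exceeded that of 96.9% of autosomal regions, and it was 0.45 with the GC trend removed.

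On chromosome 12 both regions were lower in MommeD43, by unequal amounts. The Six4 region had a log2 count of 11.92 in WT and 11.26 in MommeD43, a difference of -0.66 (-0.73 to -0.59), and 7.46% of autosomal regions had a lower difference. About 1185 reads per library lay behind the WT value and 933 behind the MommeD43 value. The Six6 region had a log2 count of 16.50 in WT and 16.39 in MommeD43, a difference of -0.11 (-0.13 to -0.10), from 28374 and 32559 reads. It was -0.42 with the abundance trend removed and 0.13 with the GC trend removed. Although only 1750 bp separated the regions, the Six6 difference was above the Six4 difference by 0.54 (0.47 to 0.62). Of the 199 autosomal regions of at least 100 kb, which include that of Six6 and that of Six3 and Six2, 84.9% were higher in MommeD43 as deposited. Their median difference was 0.30.

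**Figure D2:**
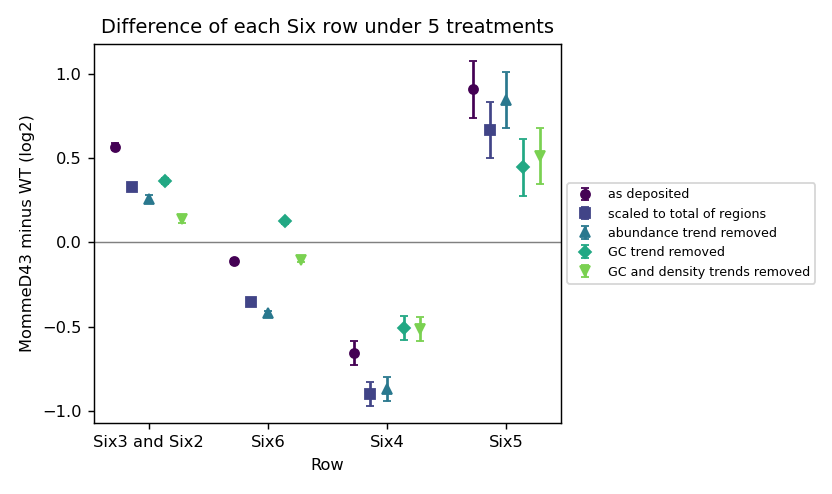
Difference in H3K27me3, MommeD43 minus WT on the log2 scale, of the 4 regions holding members of the family under 5 treatments of the values, with 95% counting intervals as bars. As deposited, the values are 0.57 for Six3 and Six2, -0.11 for Six6, -0.66 for Six4 and 0.91 for Six5, and Six6 alone crosses 0, at 0.13 with the GC trend removed, and is at -0.10 with the GC and density trends removed.

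GC content moved with the difference across the table, and the family's regions cover a wide span of it. Across autosomal regions Spearman's rho between the difference and the GC content was 0.583, as a description of regions that share the same libraries. The median difference was -0.61 in the tenth of autosomal regions with the lowest GC content and 0.39 in the tenth with the highest. GC content was 42.3% in the Six6 region, 43.3% in the Six4 region, 49.0% in the Six3 and Six2 region and 55.7% in the Six5 region, beside an autosomal median of 46.3%, so the 2 lower regions were poorer in GC and the 2 higher regions richer. Subtracting the running median over GC left 0.37 for Six3 and Six2, 0.13 for Six6, -0.51 for Six4 and 0.45 for Six5. Six6 thereby turned from lower to higher, and the other regions kept their direction. Removing the trends over GC content and read density together put Six6 back below 0, at -0.10. Compared with autosomal regions of like GC content, the Six3 and Six2 difference was above 88.7% of 293, Six6 above 65.2% of 293, Six4 above 9.59% of 292 and Six5 above 90.4% of 292. The part of GC content in these differences was not tested.

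**Figure D3:**
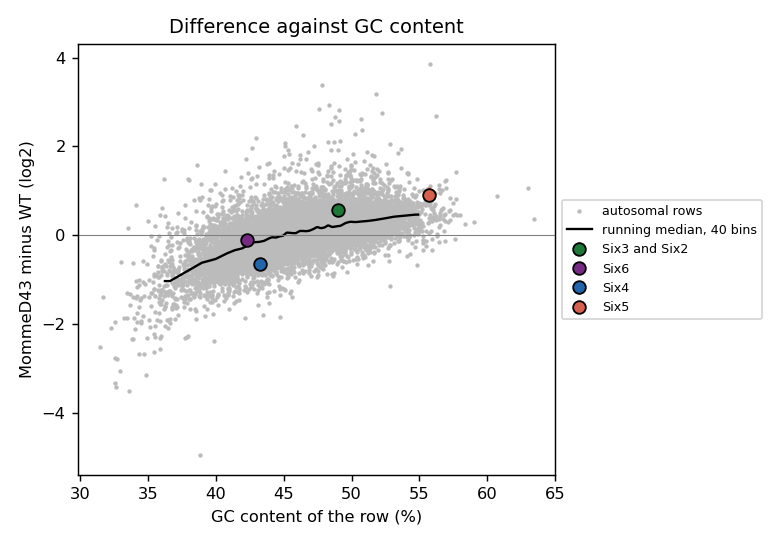
Difference in H3K27me3, MommeD43 minus WT (log2), against the GC content of each of the 11707 autosomal regions (grey), with the running median over 40 bins as a line and the regions holding members of the family in colour. The Six4 region lies below the line, the Six6 region slightly above it, and the Six3 and Six2 region and the Six5 region above it.

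The regions around each locus were compared within 500 kb. Of all regions 60.2% were higher and 39.8% lower in MommeD43. At Six6 and Six4, 5 of 5 other regions were lower, all of them beginning 170 to 308 kb beyond Six4. On the Six6 side the nearest region lay 737950 bp away, outside the window. The 5 ranged from -0.45 to -0.076 with a median of -0.30, and the region at -0.15 had a counting interval of -0.51 to 0.20. With the GC trend removed 5 of 5 stayed lower, a treatment that leaves 49.9% of autosomal regions higher. The 5 regions included a region of 187.1 kb with the starts of Prkch, a protein kinase C gene, and Tmem30b, at -0.34. Around Six5, 14 of 15 other regions were higher, with a median of 0.51 and a range of -0.22 to 0.77, and 12 of 15 were higher with the GC trend removed, at a median of 0.16. Six5 itself was above all 15 as deposited. The region of Foxa3, a forkhead factor of endoderm, was at 0.69 and that of Fosb, an AP-1 subunit, at 0.75, or 0.32 and 0.43 with the GC trend removed.

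Around Six3 and Six2, 6 of 8 other regions were higher, from -0.14 to 0.67 with a median of 0.13, and 3 of 8 were higher with the GC trend removed. The longest of the 8, a region of 65.3 kb in the Camkmt gene body, was at 0.67, and one of 48.5 kb at chr17:85771101-85819600 was at 0.45. In contrast, the region that followed Six2 after a gap of 1000 bp was 6.05 kb long and stood at 0.018, with a counting interval of -0.24 to 0.27. Over whole chromosomes the median difference was 0.19 on chromosome 17, 0.13 on chromosome 7 and -0.040 on chromosome 12, and 70.3%, 62.3% and 43.6% of their regions were higher.

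**Figure D4:**
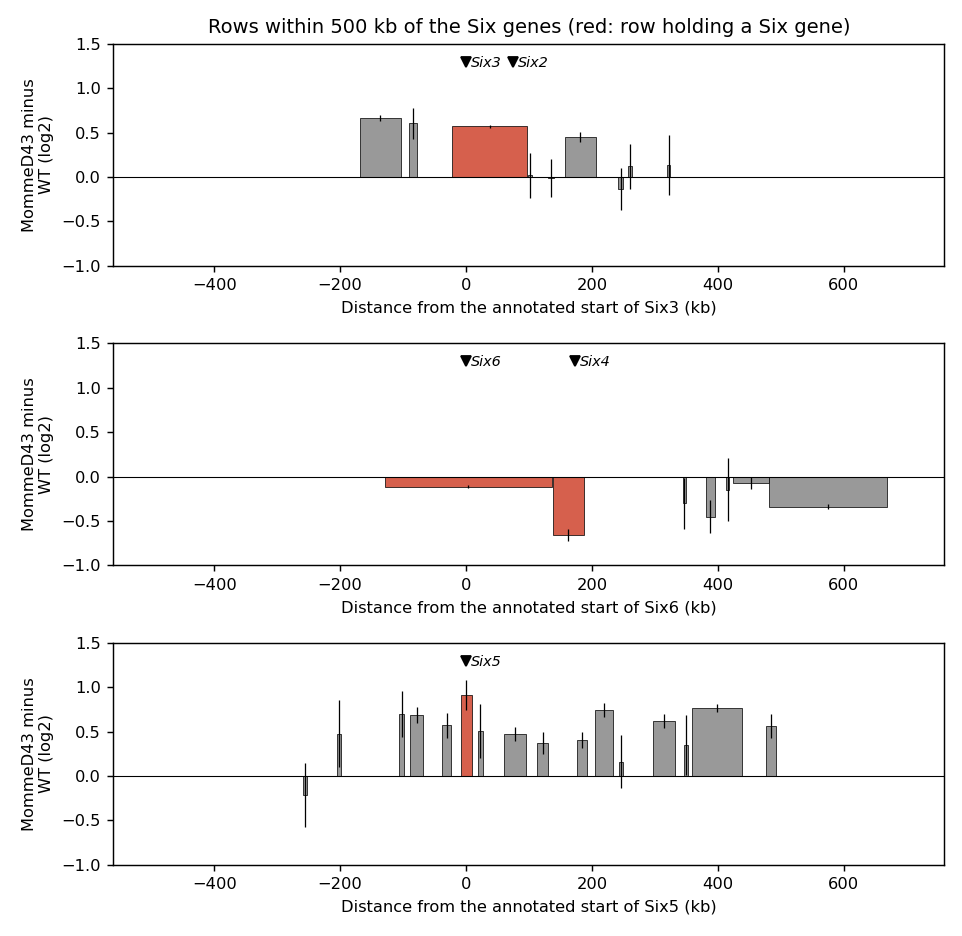
Difference in H3K27me3, MommeD43 minus WT (log2), of every region within 500 kb of the Six3 and Six2 locus, the Six6 and Six4 locus and the Six5 locus, drawn to scale against distance in kb from the start of Six3, Six6 or Six5, with 95% counting intervals as whiskers and the regions holding members of the family in red. Other regions are mixed in sign around Six3 and Six2 (6 of 8 higher), all lower beyond Six4 (5 of 5, none lying on the Six6 side) and nearly all higher around Six5 (14 of 15).

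The regions most like each of the 4 were found by the distance between their WT and MommeD43 densities on the log2 scale, over the 2 pooled columns, among 4418 autosomal regions with the start of a coding gene. Nearest to Six3 and Six2 was the region of Dlx1 and Dlx2, homeobox genes of forebrain interneurons, with 316 counts per kb in WT, 455 in MommeD43 and a difference of 0.53. The regions of Irx5 (0.42) and of Isl2 with Etfa (0.38) followed. Nearest to Six6 were the regions of the transcription factor genes Tcf21 (-0.068), Gfi1 (0.11) and Sim1 (0.12). Six4 lay nearest to Fam120b (-0.62), Pappa (-0.72) and Mff (-0.63), and Six5 to Scnn1b (0.89), Smim1 (0.94) and Ppp4r4 (0.83). Because both densities set the distance, a like difference follows from the choice and is not a separate result.

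The partners of the family were described from 4 gene lists, in which 35 of 41 genes had a region. Of their 42 regions 29 were higher and 13 lower in MommeD43, with 1 past 1 in each direction and a median of 0.29. That is 69.0% higher, beside 60.2% over all regions, which is the background for each list. The GC-adjusted median was 0.20. The GC trend was fitted to autosomal regions, which leaves out the 2 X-linked regions among the 42, those of Dach2 and Cited1. Dach2 passed from -0.45 to 0.34 with that trend removed. In the Pax, Eya and Dach list, 10 of 11 genes had a region, Eya3 being the exception, and 10 of 16 regions were higher, with a median of 0.35. Pax6, the eye and forebrain paired-box gene, was higher by 1.18 with a counting error of 0.071, from 33.4 to 75.6 normalized counts per kb, and by 0.84 with the GC trend removed, which is no longer past 1. Dach1, a co-repressor of the network, was lower by 2.28 with a counting error of 0.093, from 56.0 to 11.5 counts per kb. The Dach1 region had a GC content of 37.9%, and its difference was -1.48 with the GC trend removed. Pax8, a kidney and thyroid factor, was at 0.89 and Eya1, a co-activator of the family, at -0.73, and these became 0.85 and -0.12 with the GC trend removed. The 4 regions of this list nearest to 0 belonged to Eya2 (-0.082, 0.21 and 0.35) and Pax3 (0.35), and the Eya2 region at 0.21 turned to -0.13 after GC removal.

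In the eye field and forebrain list, 9 of 12 genes had a region, and 8 of 10 regions were higher, with a median of 0.31. Wnt1 and Shh, signalling genes downstream of Six3, were at 0.67 and 0.52. Wnt8b, another Six3 target, was at 0.45 in a region of 495.95 kb shared with Pax2, and the eye and forebrain gene Otx2 was at 0.40. The regions nearest to 0 were those of Fezf2 (-0.035), Hesx1 (0.085, outside its start), Rax (0.21) and Lhx2 (0.22). A further Lhx2 region, which held the start of that gene, was at -0.31. After GC removal Wnt1 was at 0.36, Shh at 0.22, Wnt8b at 0.29 and Otx2 at 0.47, Fezf2 turned to 0.12, Hesx1 was at 0.50, and the Lhx2 regions were at 0.037 and -0.60.

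In the kidney and muscle list, 10 of 12 genes had a region, Myf5 and Myf6 having none, and 10 of 10 regions were higher, with a median of 0.46. These 10 include the region of Six5 and 1 region on the X chromosome, where 75.7% of regions were higher and the median difference was 0.49. With the GC trend removed 9 of 10 were higher, beside 49.9% of autosomal regions. The largest differences were at Cited1 (0.94), the X-linked nephron progenitor gene, at Dmpk (0.91), which is the Six5 region itself, at Sall1 (0.84) and at Wnt4 (0.61), which drives nephron formation. Wt1 (0.092), Myog (0.17, in a region outside its start), Gdnf (0.24) and Hoxa11 (0.38) lay nearest to 0. After GC removal Cited1 was at 1.28, Sall1 at 0.54, Wnt4 at 0.19 and Gdnf at 0.077, and Myog turned to -0.13. In the co-repressor list, which holds the Groucho family genes and Sobp, which binds proteins of the family, all 6 genes had a region, and 2 of 7 regions were higher, with a median of -0.17. Sobp was at 0.65 in a region outside its start and at -0.17 at its start. Of the others, Tle6 was at -0.39, Tle2 at -0.18, Tle1 at -0.17, Tle3 at -0.038 and Tle4 at 0.18, the last in a region outside its start. The regions of this list that held a gene start were lower in 5 of 5 cases. After GC removal the 2 Sobp regions were at 0.45 and -0.26, Tle2 at -0.64, Tle3 at -0.24, Tle6 at -0.60 and Tle4 at 0.53.

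**Figure D5:**
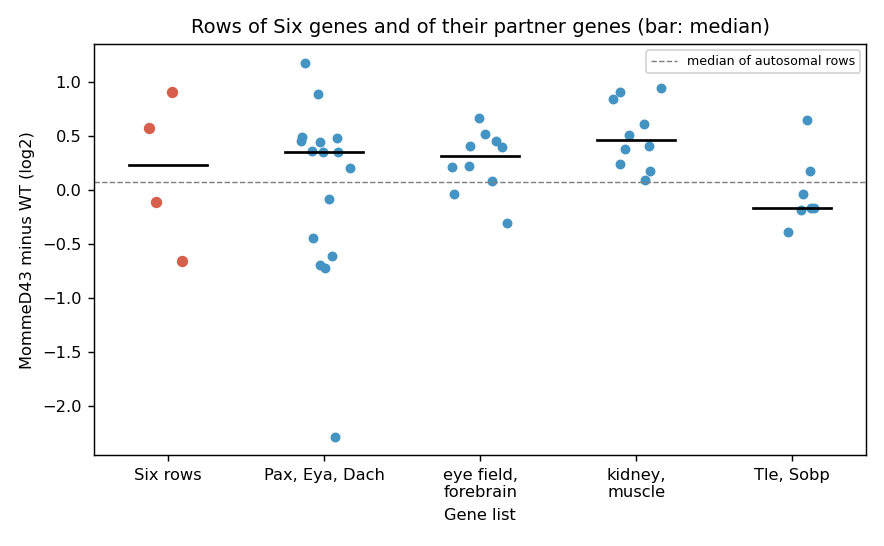
Difference in H3K27me3, MommeD43 minus WT (log2), of the regions holding members of the family and of the regions of the 4 partner lists, 1 point per region, with the median of each group as a bar and the autosomal median as a dashed line. Medians are 0.23 for the 4 regions of the family, 0.35 for Pax, Eya and Dach, 0.31 for eye field and forebrain, 0.46 for kidney and muscle and -0.17 for the co-repressors, and Pax6 and Dach1 lie past 1 on either side as deposited.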

How the data were processed

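Libraries were described by the labels as 3 H3K27me3 ChIP samples and 1 whole cell extract per genotype. The labels describe micrococcal nuclease digestion and the study's methods shearing, so how chromatin was fragmented is unsettled. Per the submitters' processing notes, Trim Galore 0.4.4 and Bowtie2 2.3.4.1 were used with GRCm38.p6. The deposited values are log2 read counts per region, which the authors scaled to total library size and averaged over 3 libraries, without division by length or subtraction of whole cell extract. Regions are peaks that the authors called per genotype on merged replicates, widened and joined. Values of single libraries were not analysed here. The study's methods say that ChIP-seq data of the GFP-tagged WT cells had appeared earlier, without naming the mark. The labels name no batch, so genotype and batch may coincide, and whether they do is not known.

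Regions were joined to GENCODE mouse release 21 genes and promoters to RefSeq, in which 5 of 5 genes matched. A further coding gene of the Six6 region is not reported here. Read depth was recovered from the values: among products of 3 counts under 30000, whole numbers (to within 0.1) were found for 1138 of 1139 in WT and 681 of 683 in MommeD43, and 1 read was worth 3.27 and 2.63 normalized counts. Poisson errors follow from this depth, assume equal libraries and cover counting error only, since reads had no molecular identifiers. Differences are MommeD43 minus WT, with no test. Alternatives were scaling to the total or to the autosomal median, pseudocounts of 10 and 50, other flanks, and removal of running medians over abundance, GC content or GC content and read density in 40 bins. These running medians were fitted to autosomal regions only.

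The members and lists were chosen with earlier results of these data known. Genes named were the members, coding and long non-coding genes starting in their regions, the 4 largest and the 4 smallest absolute differences of each list, and the 3 autosomal regions nearest in density. Nearby genes, Eya3, Myf5 and Myf6, which had no region, and the further regions of Lhx2 were named in addition, after their values were seen. Tables were handled in pandas 2.3.3 and numpy 2.4.6 under Python 3.11.15, statistics in scipy 1.17.1, sequence in pysam 0.24.0 and plots in matplotlib 3.10.9.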

Additional observations from a re-analysis of the deposited data

How the results depend on the processing

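Each genotype has 1 pooled column, so leaving out a library could not be run, and counting errors understate the true error. No paired analysis was possible because each genotype is given as a single pooled mean. Scaled to the total of all regions, which lowers every difference by 0.24, the differences were 0.33 for Six3 and Six2, -0.35 for Six6, -0.90 for Six4 and 0.67 for Six5. The median over the 4 regions then turned to -0.013, and that of the partner lists was 0.051. Scaled to the autosomal median, they were 0.49 for Six3 and Six2, -0.19 for Six6 and -0.73 for Six4, with a median of 0.15. With the abundance trend removed, Six3 and Six2 were at 0.26, Six6 at -0.42 and Six4 at -0.87, the median turned to -0.080, and the partner median was 0.082. With the GC trend removed, the values were 0.37, 0.13, -0.51 and 0.45 for Six3 and Six2, Six6, Six4 and Six5, so Six6 reversed, and 3 regions were higher and 1 lower where 2 were higher and 2 lower as deposited. With GC and read density trends removed, Six3 and Six2 were at 0.14, Six6 at -0.10, Six4 at -0.52 and Six5 at 0.51, with a median of 0.017 and a partner median of 0.065. Flanks of 50 kb gave 7 regions in place of 4, with a median difference of 0.51 in place of 0.23, since they take in neighbours. Six6 exceeded Six3 and Six2 over the whole region by 1.33 in WT and 0.64 in MommeD43, and per kb by 0.18 in WT and -0.50 in MommeD43, a reversal that follows from their unequal lengths. The turn of the median on scaling to the total follows from lowering every difference by 0.24. For the other reversals the cause was not tested. Pseudocounts of 10 and 50 moved none of the 4 differences beyond counting error.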

Other observations

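The name that the table gives a region ended before the region's own end in 8582 of 13585 regions (63.2%), and all 4 regions of the family were among them. The named stretch was 50 kb of 120.2 kb for Six3 and Six2, 7.7 kb of 265.85 kb for Six6, 5.75 kb of 48.8 kb for Six4 and 5.75 kb of 17.9 kb for Six5. What these stretches mark is not given in the sources used here.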
